A study of Mus musculus with 6 samples.

Results

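The transcripts of the mouse mitochondrial genome were followed in lung RNA. They were the 37 genes whose symbol starts with mt-, out of 49568 genes in the deposited table. The 37 genes were 13 mRNA genes, 2 rRNA genes and 22 tRNA genes, which is the complete set of the mouse mitochondrial chromosome. Right lung lobes were taken from 6-week-old C57BL/6 mice after perfusion of the vessels, and total RNA of 2 animals of 1 genotype was pooled for each library. There were 3 Col6a1-/- pools and 3 wildtype pools, and each of the 6 animals per genotype entered 1 pool. Col6a1 encodes a chain of collagen VI, a microfibrillar collagen of the extracellular matrix. The labels name no inducible or cell-specific allele and give no sex. The study set Col6a1-/- against wildtype lung, and the comparison here asks how much RNA each group held from the mitochondrial chromosome and how that RNA was composed.

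Mitochondrial DNA is a small circle that is transcribed on both strands as long precursors by the polymerase Polrmt with the factors Tfam and Tfb2m. The tRNAs lie between most of the other genes, and cutting them out releases the rRNAs and mRNAs, most of which receive a short poly(A) tail. All 13 mRNAs encode subunits of the respiratory chain and ATP synthase, and the remaining subunits of these complexes come from nuclear genes. In lung, alveolar type II, club and ciliated cells are known as cells rich in mitochondria.

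Libraries held 28055414 to 37904878 reads in genes. Values are normalized counts, in which each read of a library has the same worth, 0.802 to 1.10 depending on the library. Where 3 values are given for a genotype, they are those of its replicates 1, 2 and 3 in that order. Col6a1 had 10034, 10616 and 9344 normalized counts in Col6a1-/- lungs, against 19907, 18393 and 22330.5 in wildtype lungs. Its level was lower in every Col6a1-/- library and far from 0 (log2 fold change -1.01, SE 0.10, limma adjusted p = 0.00643). Pools differed in sex. The male share here is Y-linked RNA relative to that of Col6a1-/- replicate 2, not a measured fraction of a pool. It was 72.5%, 100% and 51.1% in Col6a1-/- lungs, against 0.347%, 3.35% and 51.5% in wildtype lungs. Xist had 12025, 28.4 and 10486 normalized counts in Col6a1-/- lungs, against 16212, 16430 and 13592 in wildtype lungs. Col6a1-/- replicates 1 and 3 and wildtype replicate 3 held both Xist and Y-linked RNA in quantity. Markers of lung epithelium were abundant in every library, with summed alveolar type II markers at 777720 to 948768 normalized counts in Col6a1-/- lungs and 852925 to 960741 in wildtype lungs.

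The mitochondrial genes were read unevenly along the chromosome. Reads were found for 22 of the 37 genes, and 15 genes, namely 3 mRNA genes and 12 tRNA genes, had 0 reads in all 6 libraries. Of the 13 mRNA genes, 7 had many reads: mt-Nd1, mt-Nd2, mt-Nd4, mt-Nd5 and mt-Nd6 of complex I, mt-Co1 of complex IV and mt-Cytb of complex III. The other 6, mt-Co2 and mt-Co3 of complex IV, mt-Atp6 and mt-Atp8 of ATP synthase, and mt-Nd3 and mt-Nd4l of complex I, had 0 to 7 reads each over all 6 libraries. A count of 0 in a library allows up to 3 reads, which is 7.91e-06% to 1.07e-05% of a library, and this limit covers counting error only. These 6 genes lie next to each other, between mt-Co1 and mt-Nd4.

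All 6 mRNA genes with few or no reads fell in the stretch of the mitochondrial chromosome that has a copy in the nuclear genome. In GRCm38, chromosome 1 carries from 24611535 to 24616197, on the minus strand, a block of 4663 bases with 7 annotated pseudogenes that match mitochondrial positions 6390 to 11042. By a BLAST search of the GENCODE transcripts, 5 of the 7 pseudogenes matched without a mismatch, and 2 mismatches were found in 4140 aligned bases. In 5 of the 6 spaces between neighbouring pseudogenes, the number of bases equalled that between the matching mitochondrial genes. The stretch also holds 5 tRNA genes, mt-Ts1, mt-Td, mt-Tk, mt-Tg and mt-Tr, which had 0 reads, and the other tRNA genes at 0 lie outside it. It also covers the last 483 of the 1545 bases of mt-Co1 (31.3%) and the first 876 of the 1378 bases of mt-Nd4 (63.6%). The annotated pseudogenes hold 43 of the 204 bases of mt-Atp8 (21.1%) and none of the 5 tRNA genes. These genes were placed in the stretch by position, and the bases between the pseudogenes were not compared. The sources used here do not say how the authors treated reads that match more than 1 place. What part the copy had in the counts of these genes was not tested.

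The edge of the copied stretch inside mt-Co1, and the first bases of mt-Nd3, are printed because they show how alike the chromosomes are there. In the first pair, capitals mark the aligned stretch, which begins at base 1063 of mt-Co1 and holds the substitution A1066T. In the second pair, the capital marks the substitution T3C. Positions count from 1 at the 5′ end of the mitochondrial gene, whose base is given first, and the sequences are from GENCODE transcripts on GRCm38.
mt-Co1, chrM:6360-6419, plus strand: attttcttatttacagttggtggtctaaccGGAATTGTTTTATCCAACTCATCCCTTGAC
Gm29216, chr1:24616159-24616197, minus strand: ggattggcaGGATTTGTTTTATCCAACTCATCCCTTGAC
mt-Nd3, chrM:9459-9498, plus strand: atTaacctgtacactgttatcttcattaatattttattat
Gm28438, chr1:24613080-24613119, minus strand: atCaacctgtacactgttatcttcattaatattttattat

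**Figure D1:**
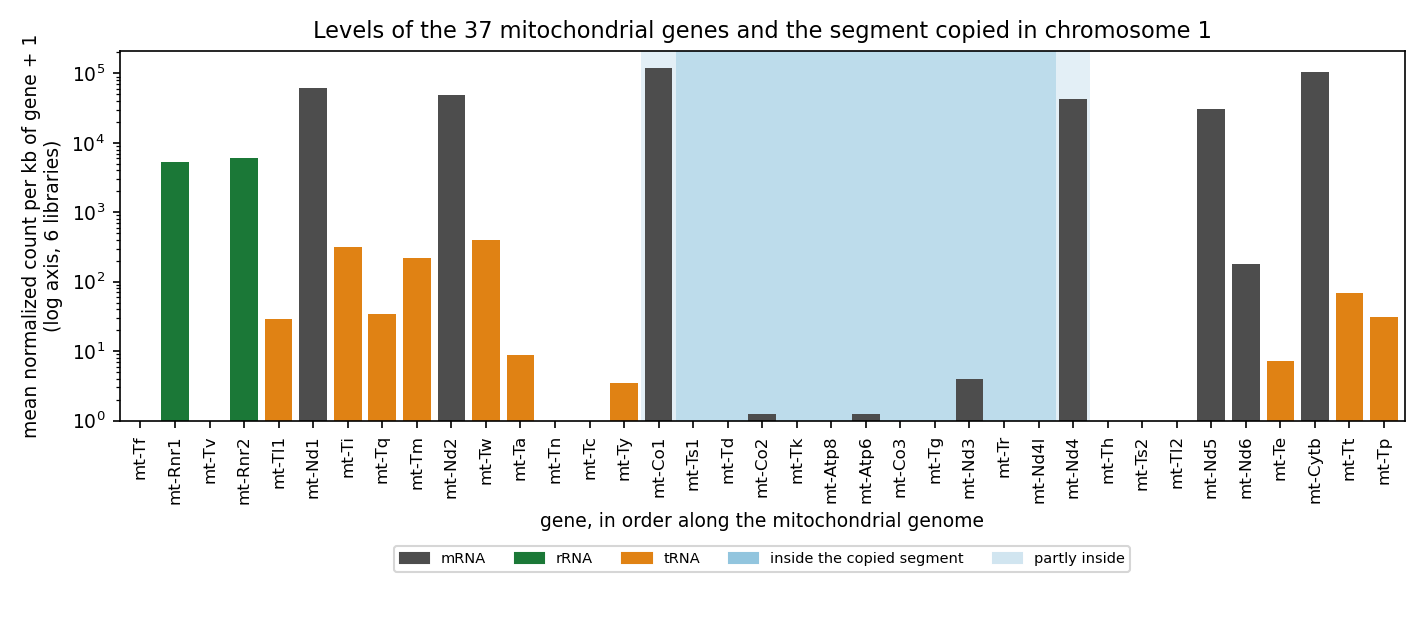
Mean normalized count per kb of gene over the 6 libraries, plus 1, on a log axis, for the 37 mitochondrial genes in chromosomal order, with bars coloured by RNA class and shading for the stretch copied in chromosome 1. The 6 mRNA genes wholly inside the shading are near the bottom of the axis, while mt-Co1 and mt-Nd4 at its edges are among the highest.

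Per length, 6 of the 7 abundant mRNAs were above the rRNAs. Over the 6 libraries, mt-Co1 averaged 118142 normalized counts per kb, mt-Cytb 105631, mt-Nd1 61024, mt-Nd2 48217, mt-Nd4 43212 and mt-Nd5 31068. The rRNAs were lower, at 5991 normalized counts per kb for mt-Rnr2 and 5279 for mt-Rnr1, and mt-Nd6 had 179. If each full count is divided by only the bases outside the copied stretch, mt-Co1 becomes 171873 and mt-Nd4 118618 normalized counts per kb. By that measure mt-Nd4 lies above mt-Cytb. The measure takes the copied bases to have given no reads, which was not tested. By mean normalized count, mt-Co1 had rank 3 and mt-Cytb rank 7 in the whole table. The labels do not say how ribosomal RNA was treated when the libraries were made.

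Mitochondrial RNA took a larger mean share of the Col6a1-/- libraries, but the groups overlapped. The mRNAs made up 2.24%, 1.84% and 2.10% of the Col6a1-/- libraries, against 1.14%, 1.06% and 1.94% of the wildtype libraries. The rRNAs made up 0.0575%, 0.0436% and 0.0688% in Col6a1-/- lungs, against 0.0354%, 0.0295% and 0.0490% in wildtype lungs. For both classes the highest wildtype library, replicate 3, was above the lowest Col6a1-/- library, replicate 2. The ratio of the Col6a1-/- mean to the wildtype mean was 1.49 for the mRNAs and 1.49 for the rRNAs, with an exact permutation p of 0.2 for each (two-sided, 3 against 3 libraries, smallest possible p 0.1). In whole tissue, fewer cells of a type and less RNA per cell cannot be told apart. Without wildtype replicate 3 the mRNA ratio was 1.87, and in the 3 pools that held both sexes it was 1.12.

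**Figure D2:**
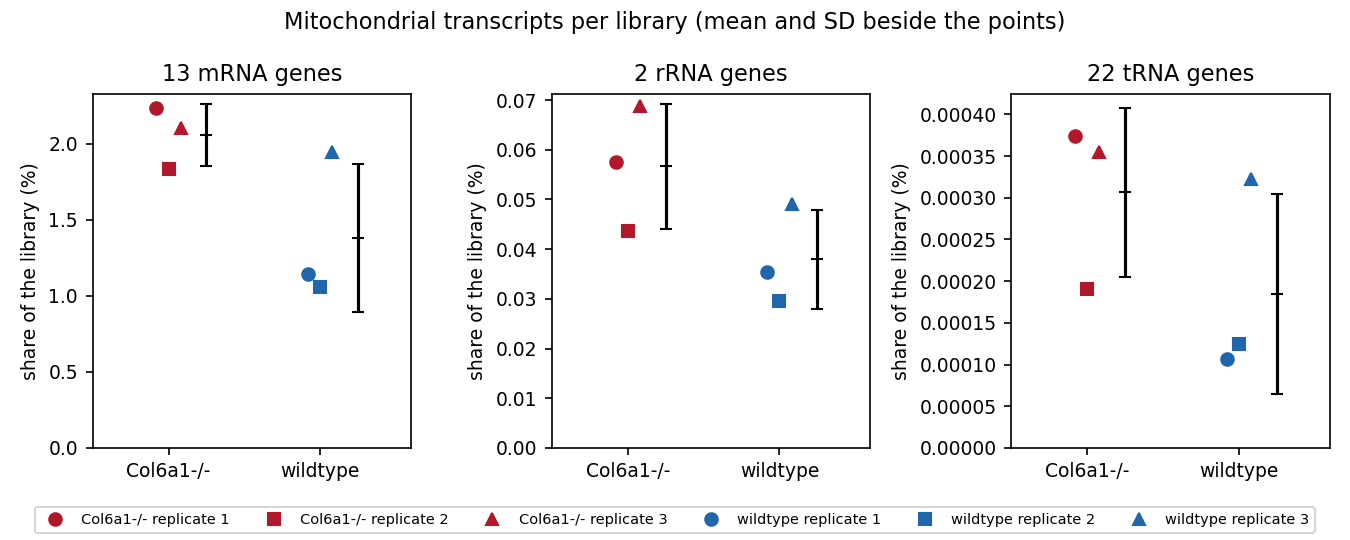
Share of each library's normalized counts, in percent, taken by the 13 mRNA genes, the 2 rRNA genes and the 22 tRNA genes, with 1 point per library and the mean and SD of each genotype beside the points. In each panel wildtype replicates 1 and 2 are lowest and wildtype replicate 3 lies within the range of the 3 Col6a1-/- libraries.

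Of the 37 genes, 12 passed the filter of 10 normalized counts in at least 3 libraries: 7 mRNA genes, both rRNA genes and 3 tRNA genes. The estimate was higher in Col6a1-/- lungs for 11 of the 12, against 51.7% of all 16879 tested genes. limma called 0 of the 12 after adjustment over all tested genes. It called 0.0652% of all genes in either direction and 0.0178% of them higher. At an unadjusted p under 0.05 there were 9 of the 12, all higher in Col6a1-/- lungs, against 9.72% of all genes. That count was 4 of 12 without Col6a1-/- replicate 1, wildtype replicate 1 or wildtype replicate 2, and 5 without Col6a1-/- replicate 3. It was 10 without Col6a1-/- replicate 2 and 11 without wildtype replicate 3. With either the male share or the length and G and C trend taken into account it was 0. edgeR on the recovered reads called 0 of the 12, and it called 0.0178% of all genes higher. DESeq2 called 3 higher, which were the 3 called in the authors' deposited table. It gave the 3 tRNA genes no adjusted p, and it called 1.87% of the genes with an adjusted p higher. The median log2 fold change of the 7 mRNAs was 0.61, against 0.01 for all tested genes, and 3.47% of all tested genes had a log2 fold change at least that high, while 8.15% had at least that of the lowest of the 7. Without wildtype replicate 3, limma called 10 of the 12 genes, and it then called 5.29% of all genes higher.

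Among the tested mRNAs, the groups were apart for 1 of complex III and 1 of complex I. mt-Cytb, the one mitochondrial subunit of complex III, had 146183, 142936 and 143228 normalized counts in Col6a1-/- lungs, against 85945, 76360 and 130401 in wildtype lungs. mt-Nd4, a subunit of the proton-pumping arm of complex I, had 72351, 69376 and 71873 in Col6a1-/- lungs, against 42431, 37628 and 63618 in wildtype lungs. For both genes every Col6a1-/- library was above every wildtype library, which held for 2 of the 12 tested mitochondrial genes and for 10.7% of all tested genes. The log2 fold change was 0.60 for mt-Cytb (SE 0.19, limma adjusted p = 0.132) and 0.61 for mt-Nd4 (SE 0.17, limma adjusted p = 0.119). In the authors' deposited table mt-Nd4 had a log2 fold change of 0.47 with an adjusted p of 0.0165, and mt-Cytb 0.46 with 0.0197. That table called 1.87% of its genes higher and 5.05% in either direction. Within Col6a1-/- lungs both genes varied little, with an SD of 1796 on a mean of 144116 normalized counts for mt-Cytb and of 1598 on 71199.9 for mt-Nd4 (n = 3). The wildtype SD was 28835 on 97569 for mt-Cytb and 13829 on 47893 for mt-Nd4 (n = 3).

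The other tested complex I mRNAs overlapped between genotypes. mt-Nd3, which did not pass the filter, had 7 reads in Col6a1-/- lungs and 0 in wildtype lungs, too few to compare. mt-Nd1, which helps to form the quinone site of the enzyme, had 78078, 63456 and 79021 normalized counts in Col6a1-/- lungs, against 32475, 30891 and 66476 in wildtype lungs. mt-Nd2, another membrane subunit, had 73456, 45787 and 68109 in Col6a1-/- lungs, against 28844, 27990 and 56108 in wildtype lungs. Wildtype replicates 1 and 2 were lowest for both genes, and wildtype replicate 3 was above Col6a1-/- replicate 2. The log2 fold change was 0.85 for mt-Nd1 (SE 0.25, limma adjusted p = 0.123) and 0.78 for mt-Nd2 (SE 0.26, limma adjusted p = 0.1502). mt-Nd5, the large membrane subunit at the far end of the pump, had 82703, 52429 and 58637 normalized counts in Col6a1-/- lungs, against 42406, 37996 and 65841 in wildtype lungs. It had the lowest log2 fold change of the mRNAs in this fit, 0.42 (SE 0.22, limma adjusted p = 0.300), and wildtype replicate 3 was above both Col6a1-/- replicates 2 and 3.

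Complex IV was represented by mt-Co1, the catalytic subunit of cytochrome c oxidase. It had 227123, 196139 and 211924 normalized counts in Col6a1-/- lungs, against 122640, 114334 and 223016 in wildtype lungs. Wildtype replicate 3 was above 2 of the 3 Col6a1-/- libraries, and the log2 fold change was 0.53 (SE 0.23, limma adjusted p = 0.231). In the 3 pools of both sexes alone it was -0.024.

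mt-Nd6 is the one mRNA read from the other strand, on which 8 tRNA genes also lie. It had 149, 89.7 and 115 normalized counts in Col6a1-/- lungs, against 48.8, 54.9 and 101 in wildtype lungs. Its log2 fold change was 0.83 (SE 0.28, limma adjusted p = 0.158), and Col6a1-/- replicate 2 was below wildtype replicate 3. mt-Nd6 ends inside the last bases of mt-Nd5, which runs the other way, and the sources used here do not say whether the counting used strand, so reads of the overlap cannot be told apart. mt-Nd6 was 0.180%, 0.171% and 0.196% of mt-Nd5 in Col6a1-/- lungs, against 0.115%, 0.144% and 0.153% in wildtype lungs. This ratio, which does not depend on the scaling of a library, did not overlap between genotypes (ratio of means 1.33, exact permutation p = 0.1, the smallest possible). The ratio was chosen after its values were seen, so this p cannot serve as a test.

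The rRNAs had similar differences. mt-Rnr1, the RNA of the small mitochondrial ribosomal subunit, had 5847, 5160 and 7123 normalized counts in Col6a1-/- lungs, against 3792, 3121 and 5208 in wildtype lungs. mt-Rnr2, the RNA of the large subunit, had 11647, 8386 and 13611 in Col6a1-/- lungs, against 7201, 5954 and 10066 in wildtype lungs. In each case Col6a1-/- replicate 2 lay below wildtype replicate 3, for mt-Rnr1 only just. The log2 fold change was 0.60 for mt-Rnr1 (SE 0.17, limma adjusted p = 0.122) and 0.54 for mt-Rnr2 (SE 0.20, limma adjusted p = 0.179). The authors' deposited table called mt-Rnr1 higher with a log2 fold change of 0.47 and an adjusted p of 0.0227, and gave mt-Rnr2 an adjusted p of 0.0640. The ratio of rRNA to mRNA was 2.57%, 2.38% and 3.28% in Col6a1-/- lungs, against 3.10%, 2.79% and 2.52% in wildtype lungs (exact permutation p = 0.9). mt-Rnr1 was 0.502, 0.615 and 0.523 of mt-Rnr2 in Col6a1-/- lungs, against 0.527, 0.524 and 0.517 in wildtype lungs (exact permutation p = 0.9).

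**Figure D3:**
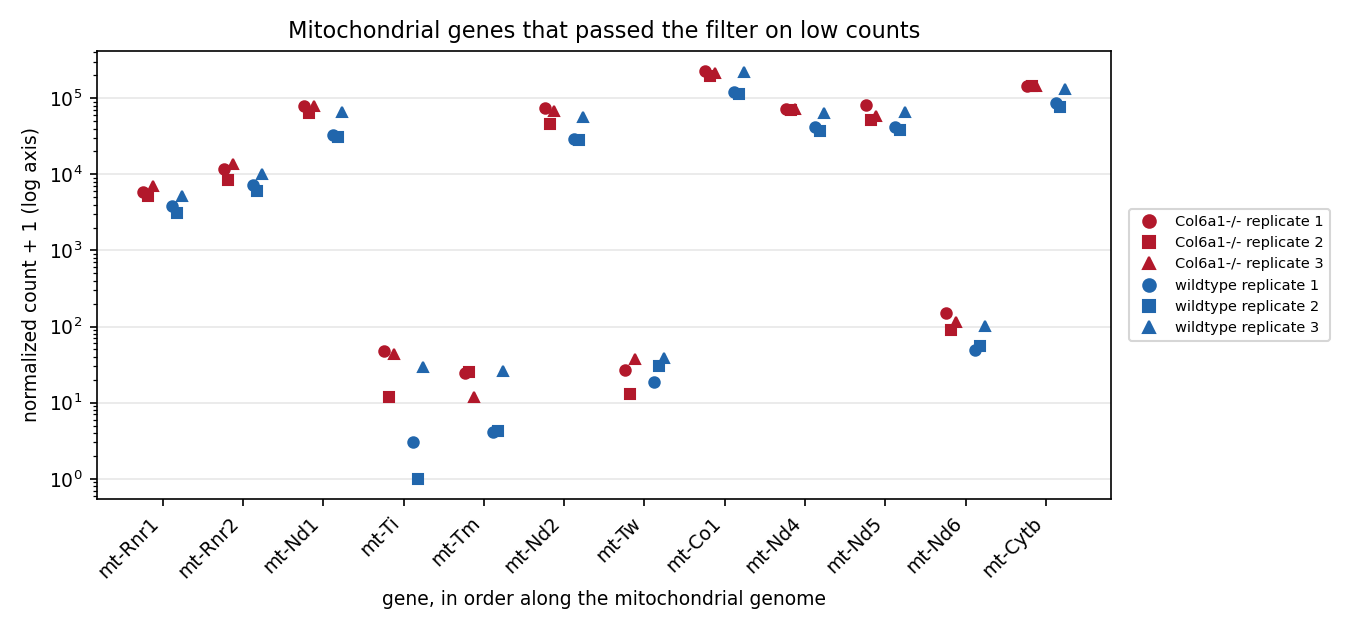
Normalized counts plus 1 on a log axis for the 12 mitochondrial genes that passed the filter on low counts, in chromosomal order, with 1 point per library. For the mRNAs and rRNAs, wildtype replicate 3 is near the Col6a1-/- points and the other wildtype libraries are below them.

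The tRNAs were barely read, with 474 reads in all 6 libraries for the 22 genes, against 3265447 for the mRNAs and 89558 for the rRNAs. The 3 tested ones, mt-Ti for isoleucine, mt-Tm for methionine and mt-Tw for tryptophan, lie on the plus strand on either side of mt-Nd2. They are printed with the anticodon in capitals, since they held most of the tRNA reads. The sequences are genomic ones from GENCODE on GRCm38 and lack the CCA end that is added later.
mt-Ti, chrM:3706-3774, plus strand: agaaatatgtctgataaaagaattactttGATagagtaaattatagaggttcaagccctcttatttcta
mt-Tm, chrM:3845-3913, plus strand: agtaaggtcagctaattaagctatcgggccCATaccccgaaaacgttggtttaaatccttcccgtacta
mt-Tw, chrM:4950-5016, plus strand: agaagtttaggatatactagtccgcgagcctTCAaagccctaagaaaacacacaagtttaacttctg

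mt-Ti had 46.5, 10.9 and 42.0 normalized counts in Col6a1-/- lungs, against 2.08, 0 and 28.1 in wildtype lungs. mt-Tm had 23.3, 24.1 and 10.996 in Col6a1-/- lungs, against 3.12, 3.29 and 25.2 in wildtype lungs. Wildtype replicate 3 was again close to the Col6a1-/- libraries, and the groups overlapped for both genes. The log2 fold change was 2.70 for mt-Ti (SE 1.03, limma adjusted p = 0.185) and 1.33 for mt-Tm (SE 0.67, limma adjusted p = 0.289). With so few reads the size depended on the fit: for mt-Ti it was 1.67 by edgeR and 1.62 to 4.05 with 1 library left out, and for mt-Tm it was 0.83 by edgeR and 0.87 to 2.21 with 1 library left out. The highest value of both came without wildtype replicate 3, and the lowest without wildtype replicate 2 for mt-Ti and replicate 1 for mt-Tm. mt-Tw had 25.7, 12.03 and 36.99 normalized counts in Col6a1-/- lungs, against 17.7, 29.6 and 37.8 in wildtype lungs, and a log2 fold change of -0.25 (SE 0.42, limma adjusted p = 0.763). mt-Ti overlaps the end of mt-Nd1 and mt-Tw that of mt-Nd2 by 2 bases, and reads across such joints cannot be assigned to 1 gene. The tRNA counts were 0.0168%, 0.0104% and 0.0169% of the mRNA counts in Col6a1-/- lungs, against 0.00937%, 0.0118% and 0.0166% in wildtype lungs (exact permutation p = 0.5).

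Apart from their amount, the make-up of the mRNAs was compared by the share of each of 7 genes, and 5 of the 7 shares overlapped between genotypes. mt-Nd1 was 11.5%, 11.1% and 12.5% of the mitochondrial mRNA counts in Col6a1-/- lungs, against 9.15%, 9.498% and 10.98% in wildtype lungs. mt-Co1 was 33.4%, 34.4% and 33.5% in Col6a1-/- lungs, against 34.6%, 35.1% and 36.8% in wildtype lungs. These were the 2 shares that did not overlap, with differences of 1.82 percentage points for mt-Nd1 and -1.76 for mt-Co1. Both had an exact permutation p of 0.1, the smallest that 3 against 3 libraries allow, before any adjustment for the 7 shares. Beside these 2 of 7, 24.9% of all tested genes had normalized counts that did not overlap in either direction. That is a different measure, since the 7 shares are parts of 1 total and depend on each other. With a smallest possible p of 0.1, a difference in composition was not shown. The mt-Nd1 difference was 1.006 percentage points in the 3 pools of both sexes, and the mt-Co1 difference was -3.39 there and -1.10 without wildtype replicate 3. The other shares overlapped: mt-Cytb averaged 23.1% ± 1.8 in Col6a1-/- lungs and 23.1% ± 1.4 in wildtype lungs (SD, n = 3 each), and mt-Nd4 averaged 11.4% ± 0.76 in Col6a1-/- lungs and 11.3% ± 0.75 in wildtype lungs (SD, n = 3 each). mt-Nd2 averaged 9.86% ± 1.59 in Col6a1-/- lungs and 8.67% ± 0.57 in wildtype lungs, and mt-Nd5 averaged 10.2% ± 1.7 in Col6a1-/- lungs and 11.5% ± 0.56 in wildtype lungs (SD, n = 3 each).

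**Figure D4:**
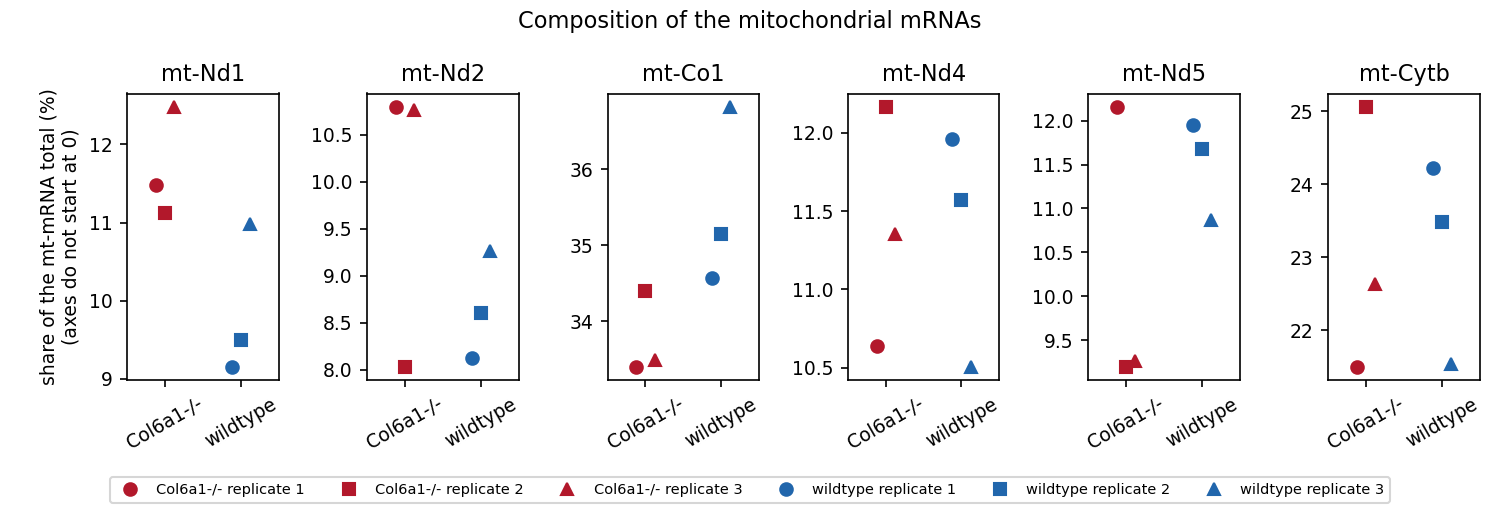
Share of the mitochondrial mRNA counts, in percent, held by each of the 6 most abundant mRNAs in each library, with a separate axis per gene that does not start at 0. The mt-Nd1 points of the Col6a1-/- libraries lie above all wildtype points and the mt-Co1 points lie below them, while the other 4 genes overlap.

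Reads were counted for some pseudogenes that copy mitochondrial genes, but few for most of those in the chromosome 1 block. There Gm10925, Gm28661, Gm28437, Gm28438, Gm28439 and Gm10222 had 0 to 6 reads each over all 6 libraries. Gm29216, the copy of the end of mt-Co1 on chromosome 1, had 27.3, 395.8 and 48.0 normalized counts in Col6a1-/- lungs, against 4.15, 5.49 and 30.01 in wildtype lungs. Col6a1-/- replicate 2 stood far above the other 5 libraries. The log2 fold change was 3.02 (SE 0.91, limma adjusted p = 0.129). Gm29216 was 0.0120%, 0.202% and 0.0226% of mt-Co1 in Col6a1-/- lungs, against 0.00339%, 0.00480% and 0.0135% in wildtype lungs. Gm13340, a full-length copy of mt-Co1 on chromosome 2 with 97.6% identity, had 120, 98.4 and 157 normalized counts in Col6a1-/- lungs, against 85.2, 54.9 and 88.1 in wildtype lungs. Its groups did not overlap (log2 fold change 0.71, SE 0.24, limma adjusted p = 0.148). Reads of such copies and of the mitochondrial genes are uncertain, since the counting could have split them.

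The libraries ranked alike by mitochondrial mRNA and by nuclear genes of similar base composition, except that wildtype replicates 1 and 2 changed places. The tested mitochondrial mRNAs have 34.1% to 39.9% G and C. Their median log2 level, less the mean over all 6 libraries, was 0.52, 0.16 and 0.32 in Col6a1-/- lungs, against -0.52, -0.62 and 0.26 in wildtype lungs. For the 999 tested nuclear genes with at most 40% G and C it was 0.33, -0.025 and 0.19 in Col6a1-/- lungs, against -0.32, -0.28 and 0.17 in wildtype lungs. In both gene groups wildtype replicates 1 and 2 were far below the others and wildtype replicate 3 was above Col6a1-/- replicate 2. The nuclear genes also overlapped between genotypes (exact permutation p = 0.2). When a smooth trend on transcript length and G and C content was removed from each library, the median log2 fold change of the 7 mitochondrial mRNAs was 0.10. The log2 fold change was then -0.063 for mt-Nd4, -0.12 for mt-Nd5, -0.072 for mt-Rnr1, -0.14 for mt-Rnr2 and 0.30 for mt-Nd1.

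Sex moved with genotype as well. Wildtype replicates 1 and 2, which had almost no Y-linked RNA, were the libraries with the lowest mitochondrial share. Col6a1-/- replicate 2, with the highest male share, had a lower mitochondrial share (1.88%) than the 3 pools of both sexes, which had 2.29% and 2.17% in Col6a1-/- replicates 1 and 3, against 1.99% in wildtype replicate 3. When the fit also held the male share, the median log2 fold change of the 7 mRNAs was 0.20, and no gene of the table was called. Within the 3 pools of both sexes, 2 from Col6a1-/- and 1 from wildtype lungs, the median was 0.18. With 1 wildtype library there, that library is assumed to vary like the others.

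**Figure D5:**
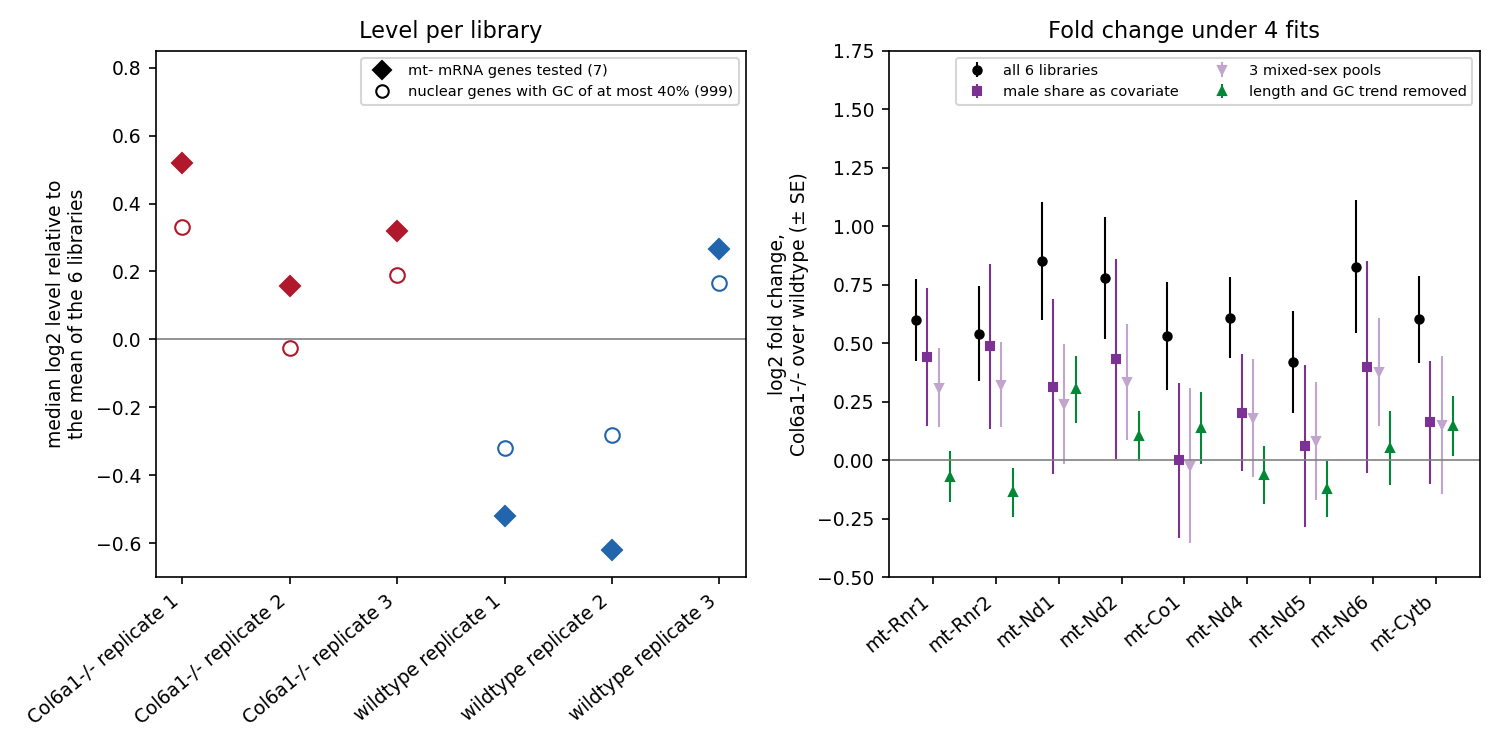
Left, median log2 level per library of the 7 tested mitochondrial mRNAs (diamonds) and of 999 nuclear genes with at most 40% G and C (circles). Right, log2 fold change with SE of the mRNAs and rRNAs in 4 fits. All are above 0 in the fit labelled all 6 libraries, which had no covariate and no trend removed. The fits with the male share and with the trend removed also used all 6 libraries. With the male share mt-Co1 is -0.0014, and with the length and G and C trend removed estimates lie between -0.14 and 0.30.

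Marker sums of other tissues and cells did not all lie on the same side, and limma called 0 of the markers described here. The 12 cardiac muscle markers summed to 25620, 27704 and 26520 normalized counts in Col6a1-/- lungs, against 25016, 22245 and 18723 in wildtype lungs. The estimate was above 0 for 11 of the 12 markers. Their lowest library was wildtype replicate 3, whose mitochondrial share was the highest among wildtype libraries. The 3 club cell markers summed to 715915 to 903400 in Col6a1-/- lungs and 545884 to 689745 in wildtype lungs, and the 5 ciliated cell markers to 16743 to 18776 in Col6a1-/- lungs and 13463 to 17019 in wildtype lungs. The 7 red cell markers summed to 62121 to 102392 in Col6a1-/- lungs and 41776 to 47821 in wildtype lungs, and the 8 white fat markers to 7901 to 12943 in Col6a1-/- lungs and 2725 to 6710 in wildtype lungs. The 4 brown fat markers were low, at 79.8 to 114 in Col6a1-/- lungs and 90.4 to 108 in wildtype lungs. The estimate was above 0 for all 3 club cell, all 5 ciliated cell, all 7 red cell and all 8 white fat markers, and no marker in these lists was at 0 in all libraries. It was below 0 for 5 of the 6 alveolar type II, 3 of the 5 alveolar type I, all 5 endothelial and all 4 alveolar macrophage markers. Of all tested genes, 51.7% had an estimate above 0. The endothelial markers summed to 101887 to 110138 in Col6a1-/- lungs and 118863 to 129151 in wildtype lungs. The alveolar macrophage markers summed to 10900 to 13472.5 in Col6a1-/- lungs and 13609 to 15458 in wildtype lungs. The 7 skeletal muscle markers, of which 1 was at 0, summed to 623 to 758 in Col6a1-/- lungs and 531 to 635 in wildtype lungs. The part of these cells in the mitochondrial share was not tested.

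Nuclear genes that serve the mitochondrion had smaller median estimates by list, in the fit without the male share and with no trend removed. Of 244 such genes in 11 lists, 242 were tested, 186 had an estimate above 0, and limma called 0. DESeq2 called 10 of the 242, against 5.06% of all genes it tested, and without wildtype replicate 3 limma called 15, against 8.26% of all genes. For the lists that follow, counts at an unadjusted p under 0.05 cover both directions, and 20.3% of all tested genes passed that mark. Among the respiratory chain subunits, the estimate was above 0 for 32 of 36 complex I genes (median log2 fold change 0.15, 7 at an unadjusted p under 0.05), 3 of 4 complex II genes (0.09, 1 gene) and 8 of 9 complex III genes (0.16, 2 genes). It was above 0 for 14 of 15 complex IV genes (0.19, 6 genes) and 14 of 15 ATP synthase genes (0.14, 4 genes). These medians were below the 0.61 of the mitochondrial mRNAs in the same fit. The mitochondrial median was 0.20 with the male share in the fit and 0.10 with the length and G and C trend removed. List medians were not taken in those fits, so the contrast was not tested there. Complex II, which has no mitochondrial subunit, included Sdha, the flavoprotein subunit, with 7038, 7322 and 7030 normalized counts in Col6a1-/- lungs, against 7340, 7100 and 7036 in wildtype lungs. Cox6c, a small subunit of complex IV, had 2223, 2633 and 2681 in Col6a1-/- lungs, against 1839, 1548 and 1920 in wildtype lungs, without overlap (log2 fold change 0.51, SE 0.11, limma adjusted p = 0.0893).

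Estimates for the genes that copy and transcribe mitochondrial DNA pointed both ways. Of its 19 genes, 10 had an estimate above 0, and the median log2 fold change was 0.08, with 8 of the 19 at an unadjusted p under 0.05, against 20.3% of all genes, and 0 called by limma. Tfam, which packs the DNA and starts transcription, had 842, 840 and 994 normalized counts in Col6a1-/- lungs, against 726, 799 and 846 in wildtype lungs. Its groups overlapped (log2 fold change 0.17, SE 0.11, limma adjusted p = 0.387). Polrmt, the RNA polymerase, had 697, 759 and 661 in Col6a1-/- lungs, against 947, 820 and 797 in wildtype lungs, and was lower in every Col6a1-/- library (log2 fold change -0.27, SE 0.11, limma adjusted p = 0.189). The initiation factor Tfb2m had a log2 fold change of 0.08 and the elongation factor Tefm of -0.08. Mterf1a, of the family of mitochondrial termination factors, had 104, 79.8 and 91.97 normalized counts in Col6a1-/- lungs, against 53.0, 57.1 and 68.7 in wildtype lungs (log2 fold change 0.62, SE 0.19, limma adjusted p = 0.133). Ssbp1, the single-stranded DNA binding protein, had a log2 fold change of 0.39 (SE 0.11, limma adjusted p = 0.122).

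Genes of mitochondrial RNA processing and decay were also mixed. Of 26, 15 had an estimate above 0, with a median log2 fold change of 0.07, 3 of the 26 at an unadjusted p under 0.05, a smaller share than the 20.3% of all genes, and 0 called by limma. Lrpprc and Slirp form a complex that stabilises the mRNAs. Slirp had 535, 535 and 657 normalized counts in Col6a1-/- lungs, against 426, 416 and 514 in wildtype lungs (log2 fold change 0.35, limma adjusted p = 0.175), while the log2 fold change of Lrpprc was -0.023. Trmt10c, a subunit of the RNase P that cuts the 5′ ends of tRNAs, had a log2 fold change of 0.39 (limma adjusted p = 0.207), and Elac2, which cuts the 3′ ends, of -0.08. For the decay enzymes, the log2 fold change was 0.35 for the exonuclease Pnpt1 (limma adjusted p = 0.273) and 0.11 for the helicase Supv3l1.

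For translation, 66 of the 77 tested mitochondrial ribosomal protein genes had an estimate above 0 (median log2 fold change 0.13, 7 at an unadjusted p under 0.05), and 9 of 19 tRNA synthetase genes (median 0.00, 1 gene). Both counts at that p were smaller shares than the 20.3% of all genes. Mrps18c, of the small subunit, had 331, 381 and 446 normalized counts in Col6a1-/- lungs, against 225, 201 and 313 in wildtype lungs (log2 fold change 0.66, SE 0.18, limma adjusted p = 0.110). Of 11 tested regulators of mitochondrial biogenesis, 6 had an estimate above 0 (median 0.04, 2 at an unadjusted p under 0.05). Pprc1, a coactivator related to PGC-1, had 1287, 1210 and 1108 normalized counts in Col6a1-/- lungs, against 1851, 1801 and 1598 in wildtype lungs, and was lower in every Col6a1-/- library (log2 fold change -0.54, SE 0.10, limma adjusted p = 0.0693). Ppargc1a, which encodes PGC-1 alpha, had a log2 fold change of 0.04. Of 11 genes of mitophagy and mitochondrial dynamics, 9 had an estimate above 0 (median 0.13, 4 at an unadjusted p under 0.05). Bnip3, a mitophagy receptor, had 1123, 1105 and 1170 normalized counts in Col6a1-/- lungs, against 697, 852 and 864 in wildtype lungs (log2 fold change 0.50, SE 0.11, limma adjusted p = 0.0869).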

How the data were processed

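Named without role or order in the submitters' processing notes are DESeq2 1.16.1, R 3.4.1, featureCounts, Subread 1.5.0p3, STAR 2.5.2b, Trimmomatic 0.36 and the genome build GRCm38.p5. The deposited signal per gene was a normalized count by the authors, per the name of the table. All values were whole reads over 1 size factor per library (100% within 1e-06). This held also in Col6a1-/- replicate 3, where 1 read was worth 0.99966 normalized counts. The authors' deposited table of their own comparison gives a mean and a statistic per gene (a score here), a log2 fold change, a p-value and its adjusted value.

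limma-trend (limma 3.58.1, R 4.3.3) was fitted to log2(normalized count + 1) of 16879 genes with at least 10 in 3 or more libraries, two-sided, with Benjamini-Hochberg adjustment over all of them and a threshold of 0.05. The pseudocount pulls the fold changes of low genes towards 0, and a mean of log2 values can still lie above the log2 ratio of means, as for mt-Ti and mt-Tm. The test was checked on simulated data. Values per library were compared by exact permutation tests, two-sided. Errors are SDs over 3 libraries. SE is that of the limma coefficient. edgeR 4.0.16 and DESeq2 1.42.0 were run on recovered reads. Positions, lengths, G and C content and sequences came from GENCODE M21, matched by symbol for 95.3% of rows, and copies from BLAST 2.17.0 at 80% identity over at least 100 bases, or 99% for bases called copied. The male share is the mean of Ddx3y, Uty, Eif2s3y and Kdm5d relative to Col6a1-/- replicate 2. The trend on length and G and C was made of natural splines (5 degrees of freedom for each property).

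The members and gene lists were chosen with earlier results of these data known. Genes were named by rule: all mt- genes, fixed regulators, and from each list the 3 tested genes with the smallest unadjusted p, of which some are printed. Gm13340, Gm13341 and the ratios of mt-Nd6 to mt-Nd5 and of Gm29216 to mt-Co1 were chosen after their values were seen. Libraries with the same replicate number did not vary together (r -0.14 to 0.11), so the numbers pair nothing. The header of wildtype replicate 2 carries the added word New, which the sources used here do not explain.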

Additional observations from a re-analysis of the deposited data

How the results depend on the processing

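The mean mitochondrial share was higher in Col6a1-/- lungs in every setting tried for it, but its size moved. These settings were other library totals, 1 library left out, the replicate block and the 3 pools of both sexes. The male share and the length and G and C trend were taken into account only in the fits per gene, not for the share. The ratio of means for all mitochondrial RNA was 1.33 to 1.87 with 1 library left out and 1.12 in the 3 pools of both sexes alone, an alternative chosen after seeing the data; for the mRNAs it was 1.33 to 1.87 and 1.12, and for the tRNAs 1.37 to 2.65. With the replicate number as a block the first was 1.54. The median log2 fold change of the mRNAs was 0.45 to 0.84 with 1 library left out, 0.61 with the replicate block, 0.20 with the male share as a covariate, 0.18 in the 3 pools, and 0.10 with the length and G and C trend removed, with or without the block. With that trend removed, in both fits, mt-Rnr1 was -0.072, mt-Rnr2 -0.14, mt-Nd4 -0.063 and mt-Nd5 -0.12. With the male covariate mt-Tm was -0.89, mt-Tw 0.030 and mt-Co1 -0.0014. In the 3 pools mt-Tm was -0.62 and mt-Co1 -0.024, and with 1 library left out mt-Tw was -0.59 to 0.18, the last without Col6a1-/- replicate 2. The cause was not tested.

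The rRNA to mRNA ratio of means was 0.882 to 1.04 with 1 library left out (0.978 with all) and 1.159 in the 3 pools. The tRNA to mRNA ratio was 1.65 by median log2 values. In percentage points, in the 3 pools the mt-Co1 share differed by -3.39, the mt-Nd1 share by 1.006 and the mt-Cytb share by 0.53. With 1 library left out, the mt-Cytb share differed by -1.02 to 0.77 and the mt-Nd4 share by -0.377 to 0.417, so neither has a direction.

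Over the whole table limma called 11 genes, 93 with no filter on low values, 7 with a filter at 50, 26 with median centring, 30 with robust moderation, 7 with the replicate block, 81 with the trend removed (48 with the block too), 0 with the male covariate, 325 in the 3 pools and 0 to 1383 with 1 library left out (1383 without wildtype replicate 3). DESeq2 called 742. Mitochondrial genes called were 3 by DESeq2 and 0 to 10 with 1 library left out, 10 without wildtype replicate 3. Nuclear genes of the mitochondrion called were 1 with no filter, 1 with the trend removed, 10 by DESeq2 and 0 to 15 with 1 library left out, 15 without wildtype replicate 3. With 3 libraries per group, an exact test cannot pass 0.05.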
